A study of Homo sapiens with 2 samples.

Results

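The 3 ERBB receptors EGFR, ERBB2 and ERBB3 and the 7 EGF-family ligands EGF, TGFA, AREG, EREG, HBEGF, BTC and NRG1 were followed in Ca9-22, a line of oral squamous cell carcinoma (OSCC) cells. A probe belonged to these genes where it was no control spot and its gene name in the array file was 1 of the 10 symbols. That gave 10 of 43317 gene names, with 18 probes on 27 spots. The cells had received either a DLEU1 lentiviral vector, DLEU1 being a long noncoding RNA, or the control lentivirus. Blasticidin selection was then applied to both populations to remove uninfected cells. A single 1-colour Agilent expression array (Cy3) was run on the RNA of each, so the comparison was 1 array against 1 array, in 1 cell line. No separate infections were labelled, and no test, p-value or replicate SD could be given.

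Ligands of the EGF family are made as membrane proteins, and proteases of the ADAM family cut many of them free. EGF, TGFA and AREG bind EGFR, HBEGF, BTC and EREG bind EGFR and ERBB4, and NRG1 binds ERBB3 and ERBB4. ERBB2 has no known soluble ligand and acts as the partner of the other receptors, and the pairs signal through RAS and ERK and through PI3K and AKT. EGFR is often strongly expressed in squamous carcinoma of the mouth.

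Levels are log2 signals set so that the 75th percentile over the probes of an array is 0, and differences are DLEU1 vector minus control vector. Processed signals are the brightness in scanner units before that scaling. A probe was detected where most of its spots were marked well above background, and a gene took the value of its brightest probe among those that both arrays detected. Probes differ in how brightly they bind, so the level of a gene was not set against that of another gene. Levels of different probes were compared to pick the brightest probe of a gene, and the marker sums below add different probes. The probe of DLEU1 for transcript NR_002605 had levels of 3.17 (control) and 5.91 (DLEU1), 6.67-fold higher, and the other 2 DLEU1 probes differed by 0.85 and 0.54. The median difference over the 20246 gene names detected on both arrays was -0.07. A 2-fold difference was called in 9.18% of them upward and in 9.78% downward. That split moved with the scaling, to 7.73% and 12.1% with the median, to 10.9% and 7.78% with the 75th percentile of detected probes and to 4.56% and 24.1% with the spike-in probes. In a narrow strip of the DLEU1 vector array, 83.7% of the spots lit on the control vector array were at least 2-fold lower, against 13.6% outside. The 8 squamous epithelial markers were detected on both arrays and their summed signal went from 99483 to 382501. Of them 7 were higher with the DLEU1 vector, while EPCAM was lower, from 18084 to 10238. Of 4 haematopoietic markers, 3 were detected on each array, with a sum of 302 and 247. Of 5 fibroblast markers 2 and 3 were detected, with a sum of 369 and 5275 that was mostly COL1A1, while COL1A2 and COL3A1 were not detected. Of 3 endothelial markers 2 were detected, with a sum of 108 and 648 that followed 1 VWF probe (48.1 and 609), while CDH5 went from 54.98 to 35.6 and PECAM1 was not detected. The part of these markers in the results below was not tested.

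All 3 receptors and 3 of the 7 ligands had a higher gene value with the DLEU1 vector, and 4 ligands had a lower one. That is 4 lower genes of 10, where 54.2% of all genes detected on both arrays were lower. ERBB3 was at least 2-fold higher, which is 1 of 10 genes where 9.18% of all genes were. NRG1, EREG and HBEGF were at least 2-fold lower, which is 3 of 10 genes where 9.78% of all genes were. The higher ligands EGF, TGFA and BTC had differences of 0.46 to 0.75, and no ligand was 2-fold higher. The lower ligands spanned -4.04 to -0.77, so the spread was wider on the lower side. The median was 0.47 over the 10 genes, 0.77 over the receptors and -0.77 over the ligands. These arrays measured the RNA of whole cultures, in which fewer cells expressing a gene and less RNA per cell cannot be told apart. Of the 18 probes, 16 were detected on both arrays, 1 on the control vector array only and 1 on neither. At the level of probes, 2 were higher and 4 lower by 2-fold or more, where the shares among the 26279 probes that both arrays detected were 8.98% and 9.78%.

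**Figure D1:**
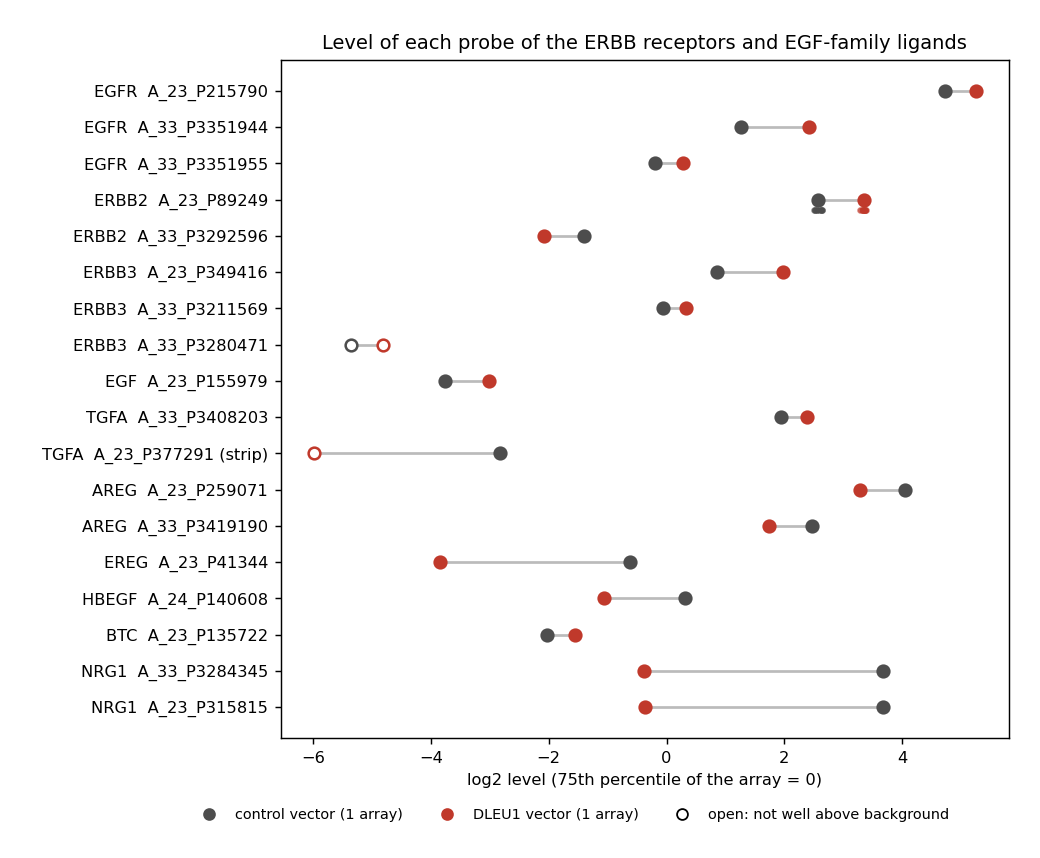
Log2 level (x axis, 75th percentile of the array at 0) of the 18 probes of the ERBB receptors and EGF-family ligands (y axis) on the control vector array (grey) and the DLEU1 vector array (red), with the 10 single spots of the first ERBB2 probe as small points below it. Open circles were not well above background. The longest lines among probes detected on both arrays are those of both NRG1 probes, from 3.68 and 3.67 down to -0.39 and -0.37, and that of EREG, from -0.63 down to -3.84.

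The receptors were described first. EGFR, the receptor that most ligands of the family share, has 3 probes on chromosome 7 (hg19, plus strand), and all were brighter on the DLEU1 vector array. The probe of transcript variant 1, NM_005228, at 55274841 to 55274900, had a processed signal of 6385 on the control vector array against 8979 for DLEU1. Its level was 4.72 and 5.25, a difference of 0.53 or 1.44-fold. A second probe, at 55224558 to 55224617, is annotated to variant 3, NM_201283, a transcript that ends early. It gave 583 and 1268, a difference of 1.16 or 2.23-fold. The probe annotated to variant 2, NM_201282, at 55231446 to 55231505, gave 212 and 287, a difference of 0.48. The array file lists it for variant 4, NM_201284, as well, and whether it also reads variant 1 was not settled. All 3 probes thus gave a higher signal with DLEU1, with a gap of 0.68 between the smallest and the largest difference. Over the 4674 genes with several detected probes the median of that gap was 0.35. The probe annotated to variant 2 is shown as a stretch apart from the brightest probe, and it has 1 reading frame without a stop codon.
EGFR A_33_P3351955: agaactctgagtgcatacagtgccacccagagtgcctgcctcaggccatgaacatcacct

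ERBB2, the receptor without a ligand of its own, was the member measured with replicated spots. The probe A_23_P89249 (chromosome 17, 37884829 to 37884888, hg19) sits on 10 spots of each array. Its lowest, median and highest processed signals were 1378, 1444 and 1515 on the control vector array. On the DLEU1 vector array they were 2308, 2408 and 2478. The 2 sets of spots did not overlap. The difference was 0.77 ± 0.05 (SD, n = 10 spots), or 1.71-fold, and ranged from 0.69 to 0.84 over the spots. Spots share 1 RNA, so this SD is technical and holds nothing of the spread between cultures. The second probe, for ENST00000584014 at 37851136 to 37851195, went the other way. It gave 91.5 and 56.1, a difference of -0.67. This dim probe lies upstream of the first one, which was taken as the value of ERBB2. The mean of both probes was 0.05.

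ERBB3, which binds neuregulins and signals with ERBB2, was the only one of these 3 receptors past 2-fold in its gene value. Its probe for NM_001982 on chromosome 12 (56496160 to 56496219, hg19) gave 440.1 for the control vector against 925 for DLEU1. The level went from 0.86 to 1.97, a difference of 1.11 or 2.16-fold. The probe annotated to a short transcript, variant s (NM_001005915), at 56479217 to 56479276, gave 233 and 295, a difference of 0.38. The third ERBB3 probe, at 56482380 to 56482439, is annotated to NM_001982 as well. It was not well above background on either array, with signals of 5.94 and 8.42, so the probes of this transcript differed in detection. ERBB3 fell just under 2-fold with median scaling, where its difference was 0.997, to 0.74 with the mean of probes and to 0.65 with spike-in scaling.

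Among the ligands of EGFR, EGF itself was dim. Its probe on chromosome 4 (110932689 to 110932748, hg19) gave 17.9 and 29.4, close to the lowest detected signals of 14.2 and 14.3, and a difference of 0.75. The SD of a replicated spot was 0.31 at signals under 100, from 5 probes. With background correction by normexp the difference of EGF was 0.28. BTC, betacellulin, also had signals under 100, at 59.4 and 80.8, a difference of 0.48. EGF was thus near the background of the arrays, and BTC came to 0.02 with spike-in scaling.

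TGFA, a ligand that squamous cells make for their own EGFR, was measured by a bright probe of NM_003236 on the minus strand of chromosome 2 (70683472 to 70683531, hg19). It gave 927 and then 1239 with DLEU1, a difference of 0.46 or 1.37-fold. The second TGFA probe, at 70675319 to 70675378, gave 34.2 and 3.72 and was not well above background on the DLEU1 vector array, at least 2.33-fold lower. That probe lay in the damaged strip of that array. The direction for TGFA rests on the bright probe, outside the strip, and turned to -0.01 with spike-in scaling. Its sequence is given because the value of the gene depends on it alone.
TGFA A_33_P3408203: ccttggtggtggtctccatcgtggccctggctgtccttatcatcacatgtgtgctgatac

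AREG, EREG and HBEGF were lower on the DLEU1 vector array. AREG, amphiregulin, has a probe at 75320518 to 75320577 of chromosome 4 (hg19), which gave 4003 and 2291. The difference was -0.77, or 1.70-fold lower. The other AREG probe, at 75318293 to 75318352, gave 1349 and 786, a difference of -0.74. Both probes thus gave nearly the same value, with a gap of 0.03 where 7.96% of the genes with several probes had a gap under 0.05. RefSeq lists AREGB, a near-identical copy on the older genome build, as another name of AREG, so the signals of the copies cannot be told apart. AREG did not reach 2-fold, except with spike-in scaling at -1.23. The probe with the dimmer signal is shown as the second of the pair.
AREG A_33_P3419190: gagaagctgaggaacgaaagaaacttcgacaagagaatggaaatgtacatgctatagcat

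EREG, epiregulin, had 1 probe, at 75254009 to 75254068 of chromosome 4 (hg19). It gave 157 on the control vector array and 16.4 on that of DLEU1, where it was still called detected but lay near the lowest detected signal of 14.3. The level went from -0.63 to -3.84, a difference of -3.22 or 9.30-fold lower. Of the 26279 probes detected on both arrays, 59 had a lower difference. With normexp, which lifts dim signals, the difference was -1.44. EREG was at least 2-fold lower in the main setting and in all 12 alternatives that gave a value.

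HBEGF, which is bound at the cell surface until it is shed, had 1 probe on the minus strand of chromosome 5 (139713052 to 139713111, hg19). The signal was 299.6 for the control vector against 113 for DLEU1. The difference was -1.37, or 2.59-fold lower, and 4.70% of the probes had a lower one. It was -0.98 with normexp, just under 2-fold.

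The genes of EPGN, EREG, AREG and BTC lie next to each other on chromosome 4, with their probes within 497 kb (75178782 to 75675897, hg19). Their values differed along this stretch. EPGN, epigen, was not detected on either array, EREG was at -3.22, AREG at -0.77 and -0.74, and BTC at 0.48. The 250 bases before the start of a gene were looked up in RefSeq windows (GRCh38.p14). These held 8 of the 10 members in 10 windows, as EGFR and TGFA have 2 each. No window was there for ERBB3 or for NRG1, the lowest of the ligands. The windows of AREG, EREG and HBEGF are shown because these ligands were lower together. Each is written 5′ to 3′ on the strand of its gene, at chr4:74444886-74445135 for AREG, chr4:74364895-74365144 for EREG and chr5:140346604-140346853 for HBEGF. The motifs searched do not contain each other. Capitals mark the CRE motif TGACGTCA and the GC box GGGCGG, read on either strand.
AREG: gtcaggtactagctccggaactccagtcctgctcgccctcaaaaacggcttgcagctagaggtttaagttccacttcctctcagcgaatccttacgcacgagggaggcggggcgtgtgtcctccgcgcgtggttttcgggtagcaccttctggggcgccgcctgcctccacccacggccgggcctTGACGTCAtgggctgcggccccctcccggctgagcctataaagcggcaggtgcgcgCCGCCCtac
EREG: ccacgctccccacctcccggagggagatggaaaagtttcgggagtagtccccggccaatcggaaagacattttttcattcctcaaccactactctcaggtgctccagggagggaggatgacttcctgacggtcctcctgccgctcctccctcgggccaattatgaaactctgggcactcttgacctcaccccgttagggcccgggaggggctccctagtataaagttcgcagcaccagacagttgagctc
HBEGF: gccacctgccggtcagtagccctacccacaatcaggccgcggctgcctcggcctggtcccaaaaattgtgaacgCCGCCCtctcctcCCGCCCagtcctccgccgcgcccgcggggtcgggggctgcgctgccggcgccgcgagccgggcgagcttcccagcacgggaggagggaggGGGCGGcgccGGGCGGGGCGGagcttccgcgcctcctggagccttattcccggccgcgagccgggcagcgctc

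The AREG window held a CRE motif starting 65 bases before the gene's start, a motif found in 1.65% of the 35116 promoter windows of the table, and a GC box. The HBEGF window held 5 GC boxes, of which the last pair shares a base, and the EREG window held none of the letters searched. A GC box stood in 4 of the 10 windows of members and in 42.6% of all windows. The AP-1 motif TGANTCA stood in 3 of the 10 (for EGFR, ERBB2 and EGF) against 6.57% of all windows, and in none of the windows shown. For EGFR it stood only in the window at chr7:55109589-55109838, and the window at chr7:55018767-55019016 held none. The ETS motif CCGGAAG stood in 1 window of a member (ERBB2) against 8.52%, and the E-box CACGTG in 0 against 6.34%. No motif was shared by all 3 of the lower ligands shown. A match describes the letters only, and the missing ones say nothing of a factor.

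NRG1, the neuregulin that binds ERBB3 and ERBB4, had the lowest values of the family. Both of its probes are annotated to transcript variant HRG-gamma, NM_004495, on the plus strand of chromosome 8 (hg19). The first, at 32585521 to 32585580, gave 3103 on the control vector array against 180.2 on the other. The difference was -4.07, or 16.8-fold lower. The second, from 32474390 to 32585512, spans a splice junction and gave 3078 and 182, a difference of -4.04 or 16.4-fold lower. The probes agreed within 0.03, and 9 and 11 of the 26279 probes had a lower difference. They lie 8 bases apart on the genome, so they read the same stretch of RNA and are no separate views of the gene. They do not tell which of the NRG1 transcripts were lower. Neither lay in the damaged strip. Over the alternatives the NRG1 difference ran from -4.50 to -3.67.

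**Figure D2:**
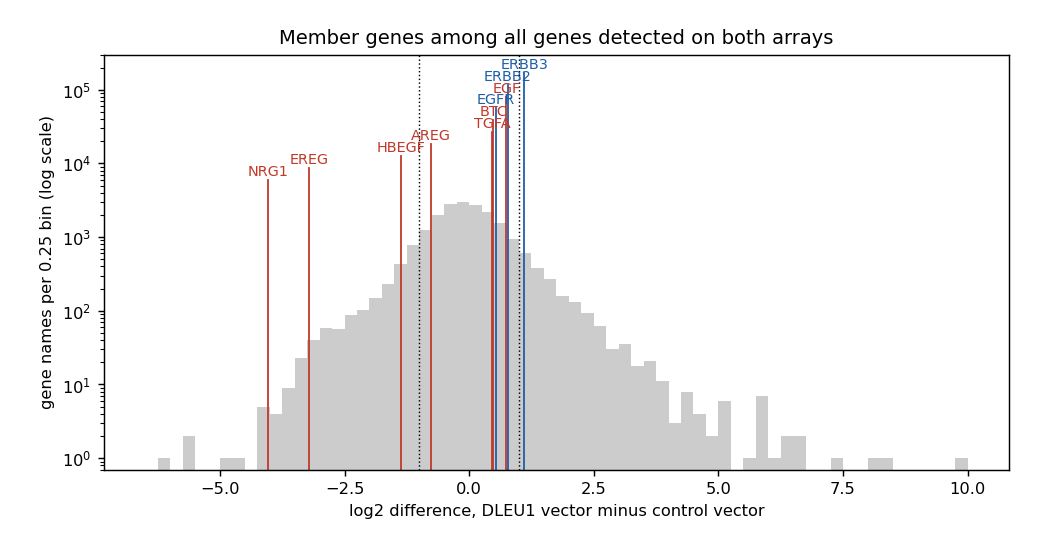
Histogram of the log2 difference (x axis, DLEU1 vector minus control vector) over the 20246 gene names detected on both arrays (y axis, gene names per bin, log scale), with receptors marked in blue and ligands in red and dotted lines at 2-fold. The 3 receptors, EGF, TGFA and BTC stand between 0.46 and 1.11, AREG and HBEGF at -0.77 and -1.37, and EREG and NRG1 in the lower tail at -3.22 and -4.04, while TGFA is at -0.01 with spike-in scaling.

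The family has further genes that were read from the same arrays. ERBB4, the receptor for neuregulins and several EGFR ligands, had a probe at 6.64 with the control vector, where it was not well above background, and at 71.0 with the DLEU1 vector. That is at least 5.13-fold higher, or 2.36 on the log2 scale, against 0.80 with normexp. Its other probe was not detected on either array. NRG2 was detected with the DLEU1 vector only, at 17.2 and 25.3, at least 1.5-fold higher. NRG4, a ligand of ERBB4, gave 469 and 698, a difference of 0.61. NRG3 and EPGN were not detected on either array.

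Of 11 genes for ligand shedding, 10 were detected on both arrays. A 2-fold difference was passed by 3 upward and by 0 downward, against 9.18% and 9.78% of all genes, and the median was 0.05. TIMP3, an inhibitor of metalloproteases that include ADAM17, gave 1171 and 4213, a difference of 1.89. RHBDF1, an inactive rhomboid protein that carries ADAM17 through the cell, differed by 1.08, and ADAM19, a protease of the same family, by 1.02. ADAM17, the main sheddase of TGFA, AREG, EREG and HBEGF, gave 1119 and 1093, a difference of 0.00. ADAM10, which sheds EGF and BTC, differed by 0.55.

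All 24 adaptor and kinase cascade genes were detected on both arrays, and their median was -0.19. SOS2, an exchange factor for RAS, was at least 2-fold higher with 1.06. PTPN11, the phosphatase SHP2 that RAS activation needs, was at least 2-fold lower with -1.04, from 8022 to 3813 over 10 spots, and its other probe differed by -0.65. The remaining 22 genes lay within 2-fold, which puts 1 of 24 past the threshold in each direction where 9.18% and 9.78% of all genes were.

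Among 13 genes for inhibition and turnover of the receptors, 1 passed 2-fold upward and 3 downward, against 9.18% and 9.78% of all genes, and the median was -0.13. CBLB, a ubiquitin ligase, went from 400.0 to 1364, a difference of 1.81, and its second probe was detected with the DLEU1 vector only. CBL, the related ligase, had a difference of -3.14, but its probe lay in the damaged strip, and without it the list had 2 lower genes of 12. ERRFI1, the feedback inhibitor MIG6 that binds the EGFR kinase, went from 5410 to 1826, a difference of -1.53. UBASH3B, a phosphatase that binds CBL, went from 272 to 79.8, a difference of -1.73.

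Genes known as feedback and output of ERK were mostly lower. Of 18, 17 were detected on both arrays, of which 14 were lower and 3 higher, where 54.2% of all genes were lower. At least 2-fold lower were 10, where 9.78% of all genes were, and at least 2-fold higher were 0, where 9.18% were. The median was -1.35. Without FOSL1, the lowest gene of the list, 9 of 16 detected genes passed the threshold downward and the median came to -1.21. This list, like the others, was drawn up with earlier results of these data known. Its counts beside those of all genes are thus a description and no test. FOSL1, the AP-1 subunit FRA1, went from 4262 to 251, a difference of -4.05. PHLDA1, a gene that ERK induces, went from 2161 to 181, a difference of -3.54. ETV5, an ETS factor, differed by -2.85, and EPHA2, a receptor tyrosine kinase, by -2.63. The feedback inhibitors SPRED1 and SPRED2 differed by -1.97 and -1.95. On the DLEU1 vector array these genes were dim, with signals of 26.0 (ETV5), 80.8 (EPHA2), 81.5 (SPRED1) and 29.1 (SPRED2). The sizes of their differences are therefore less certain. The count of 10 came to 7 with normexp, where 6.98% of all genes were at least 2-fold lower. It came to 5 once probes dimmer than 100 were dropped, which leaves fewer genes and where 10.2% of all genes were. ETV4, another ETS factor, was detected with the control vector only, at 93.0 against 11.9, at least 6.33-fold lower. The genes that were higher were EGR1 with 0.81, SPRY4 with 0.56 and FOS with 0.30, all under 2-fold. The other SPRY4 probe was detected with the control vector only, at 38.3 against 9.23, at least 2.61-fold lower, so the SPRY4 probes went opposite ways. Protein levels, ligand release and ERK phosphorylation are not measured by these arrays.

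Scaling by a constant moved all members together. With quantile normalization and loess the moves differed by gene, EGFR rising to 0.76 and 0.78 and EGF falling to 0.65 and 0.71. Against the 75th percentile, median scaling shifted the median probe by -0.11, the 75th percentile of detected probes by 0.11 and spike-in scaling by -0.46. With spike-in scaling EGFR differed by 0.07, TGFA by -0.01 and BTC by 0.02, while NRG1, EREG and HBEGF were lower still.

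**Figure D3:**
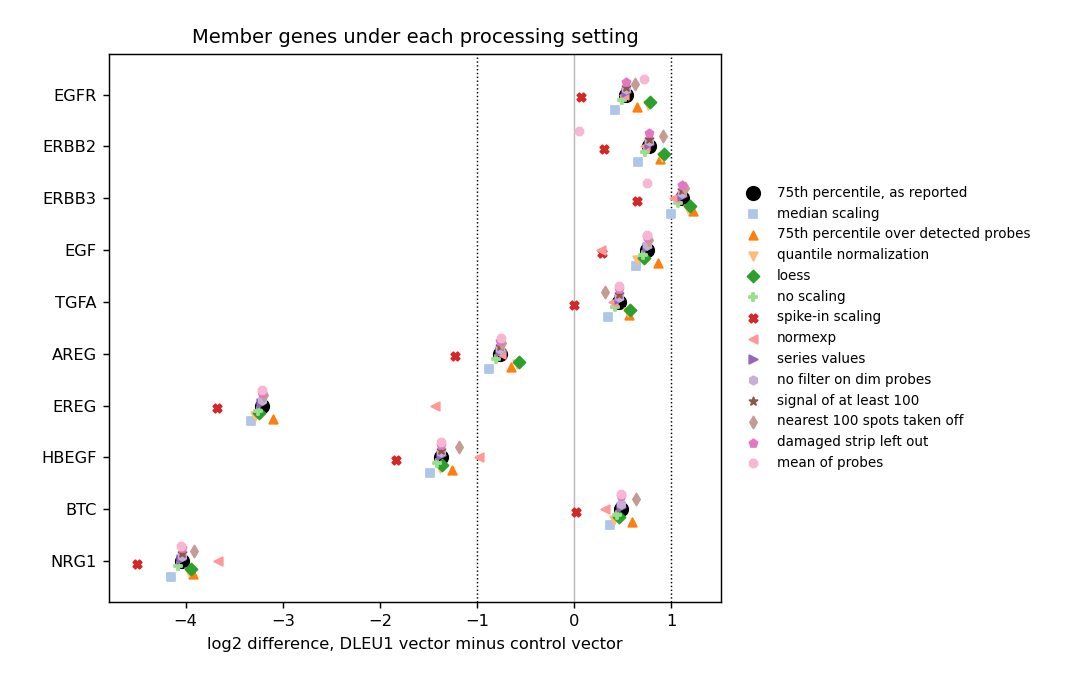
Log2 difference (x axis, DLEU1 vector minus control vector) of each of the 10 genes (y axis) under the reported setting (large black points) and the other settings (small symbols, with small vertical offsets), with dotted lines at 2-fold. NRG1 and EREG stay past 2-fold in each setting shown, HBEGF reaches -0.98 with normexp, and TGFA crosses 0 to -0.01 with spike-in scaling.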

How the data were processed

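Total RNA of Ca9-22 cells with either vector was measured on 1 SurePrint G3 Human GE v3 array each. Per the file headers, Agilent Feature Extraction 10.7.3.1 made the deposited intensity values by subtracting a local background, removing trends over the array and replacing very dim signals by surrogates. GeneSpring GX was the authors' analysis software. The deposited series values hold the same intensity, rounded. No scaling between arrays had been applied, and probe positions are those of hg19.

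Control spots and outlier spots (84 and 103) were left out, with 0 saturated spots. Log2 signals were averaged over the spots of a probe and the 75th percentile was subtracted. Of 58201 probes, 47.6% and 48.1% were detected. A probe detected on 1 array only was given as at least N-fold, its bright value set against its own dim signal or, where higher, the lowest signal detected there. The damaged strip held spots where at least 20% of the lit spots within 8 rows and 1 column were over 8-fold lower on the DLEU1 vector array (180 spots). Replicated spots had a log2 difference with an SD of 0.08 over 282 probes, 0.10 at signals of 100 to 1000 and 0.06 above. The number of arrays limits the precision. Scripts ran in Python 3.11.15 with limma 3.58.1 for normexp, and were tested on simulated data.

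Named were all members and remaining family genes, and from each list the genes past 2-fold (at most 6) or detected on 1 array only. ADAM10, ADAM17, EGR1, SPRY4 and FOS were named after their values were seen. Members and lists were chosen with earlier results of these data known.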

Additional observations from a re-analysis of the deposited data

How the results depend on the processing

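Of 127 values of member genes under the alternatives, 71 moved by less than the SD of replicated spots, 56 moved by more, and 1 changed sign, TGFA with spike-in scaling. The median difference of the 10 genes was 0.36 under median scaling, 0.58 where the 75th percentile was taken over detected probes, 0.0051 with spike-in scaling, 0.30 with normexp and 0.25 with the mean of probes. At least 2-fold higher were 0 members with median scaling, spike-in scaling, the mean of probes and a 3-fold threshold, and 3 at 1.5-fold. Shedding genes at least 2-fold higher numbered 1 with median scaling, spike-in scaling, normexp and a 3-fold threshold. Adaptor and kinase genes higher numbered 0 with median scaling, spike-in scaling, normexp and 3-fold, 2 with quantile normalization, loess and after taking off the nearest 100 spots, and 3 at 1.5-fold. Those lower numbered 0 with the 75th percentile over detected probes, quantile normalization, loess, the nearest 100 spots, the mean of probes and 3-fold. They numbered 4 with spike-in scaling, where 24.1% of all genes were at least 2-fold lower, and 3 at 1.5-fold. Of all genes, 18.4% were higher and 22.0% lower at 1.5-fold, and 3.82% and 3.31% at 3-fold. The share of all genes at least 2-fold higher was 4.56% with spike-in scaling, 7.73% with median scaling and 5.54% with normexp. Remaining family genes higher numbered 1 without a filter on dim probes and at 1.5-fold, inhibitor genes higher 3 at 1.5-fold, and ERK genes higher 1 at 1.5-fold. ERK genes lower numbered 5 with a signal of at least 100, which leaves fewer genes and where 10.2% of all genes were lower by 2-fold. The causes of these moves were not tested. The other counts stayed within 1.5 times. No paired analysis was possible because each group had 1 array, and no array could be left out. EGF, EREG, HBEGF and BTC rest on 1 probe each, and TGFA on 1 probe detected on both arrays. The probe of EGF on both arrays and that of EREG on the DLEU1 vector array lay near the lowest detected signal.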
